A study of Caenorhabditis elegans with 8 samples.

Results

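Ribosome occupancy of coding sequences (CDS) was compared between monosomes isolated on a gel filtration column and monosomes isolated on a sucrose gradient, in young adult whole worms of the Caenorhabditis elegans wild-type strain N2. Ribosome profiling sequences the piece of mRNA that each translating ribosome shields from nuclease. The series held 8 libraries, of which 4 were from young adults and 4 from L4 larvae, the stage before adulthood, which were not analysed here apart from 1 alternative fit. The 4 young-adult libraries crossed the 2 isolations with 2 library preparations, the submitters' own protocol (in-house) and a commercial ribosome profiling kit, with 1 library in each combination. The young adults came from isolated eggs and were raised on plates of NA22 bacteria once they had reached the first larval stage. Their fragments came from the 28 to 30 nt region of a gel. The 4 libraries carry the same specimen number. No label gives separate cultures or separate runs of either isolation, so p-values measure only the technical spread between libraries. The values are RPKM, reads per CDS divided by feature length and by library reads. The comparison covers the 11569 of 20505 CDS with at least 1 RPKM in at least 2 of the 4 libraries, each paired within its preparation.

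A ribosome profiling experiment digests polysomes to monosomes and then has to recover those monosomes from the lysate. A sucrose gradient parts particles by how fast they sediment, and a gel filtration column parts them by size, with large particles leaving the column first. Ribosomes that make membrane and secreted proteins are held at the endoplasmic reticulum (ER), while those that make ribosomal, cytosolic or nuclear proteins are free in the cytosol.

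The libraries held between 18018744 reads (column, kit) and 38132794 reads (gradient, kit). Yolk and oocyte markers matched the labelled stage in all 4. The yolk protein vit-6 gave 7391 (gradient) and 7689 RPKM (column) in-house, and 7118 and 7496 RPKM with the kit. The yolk receptor rme-2 of oocytes lay between 226 and 334 RPKM. Of the cuticle and molt genes, sqt-1 lay between 1.18 and 1.33 RPKM, bli-1 between 0.237 and 0.477, mlt-10 between 0.185 and 0.278, and noah-1 between 5.58 and 6.23. These were not set against values of the L4 libraries. In whole worms, fewer cells of a type and less RNA per cell cannot be told apart, and RPKM of fragments does not separate mRNA level from translation.

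Many CDS differed by small amounts between the column and the gradient libraries. Of all CDS tested, 39% were called at an adjusted p under 0.05 (limma), with 2292 (19.8%) higher on the column and 2219 (19.2%) lower. Of the 11569 CDS tested, 9239 had the same sign in both preparations. All 4511 called CDS did, but disagreement between the preparations is the residual of the fit, so calls favour CDS whose signs agree. Only 262 of the called CDS differed by more than 1.5-fold, 183 of these higher and 79 lower. The median difference (log2 of column minus gradient, each as RPKM + 1) was +0.021 over all CDS. Centring each library on its median left 4404 calls but moved the split to 1701 higher and 2703 lower, so small differences near 0 have no settled direction. Among the CDS named below, the calls of ant-1.1, nuo-5, spcs-2, tomm-70, ttn-1, uggt-1, vha-2 and vit-1 were lost on centring. With the preparation term left out of the fit no CDS was called, and 1651 had an unadjusted p under 0.05. Called CDS that were higher had a median length of 1538.5 nt, those lower 709 nt and those not called 1069.5 nt.

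CDS length ordered the difference. In the 515 CDS under 300 nt, 21 were called higher and 181 lower, with a median of -0.21. From 300 to under 600 nt 144 of 2031 were higher and 710 lower, median -0.14. Between 600 and under 1200 nt the calls were closer to even, 557 of 3903 higher and 806 lower, median -0.012. They were 1035 of 3705 higher and 422 lower from 1200 to under 2400 nt (median +0.11), and 427 of 1179 higher and 88 lower from 2400 to under 4800 nt (+0.16). Of the 198 CDS from 4800 to under 9600 nt 91 were higher and 9 lower, median +0.23. The longest bin, 9600 nt and over, held 38 CDS, with 17 higher, 3 lower and a median of +0.20, no further from 0 than the bin below it. Changes of more than 1.5-fold were lower for 27 CDS and higher for 6 under 300 nt, and higher for 67 CDS and lower for 0 at 2400 nt and over.

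Bin medians went the same way with each preparation. In the in-house pair the bin medians ran from -0.17 under 300 nt to +0.22 from 4800 to under 9600 nt, and in the kit pair from -0.24 to +0.23. The difference rose by 0.097 on the log2 scale for each 2-fold longer CDS, 0.091 in-house and 0.102 with the kit. A crossed contrast, the kit difference less the in-house difference, divided by 2, had a slope of 0.006, and the kit minus in-house difference a slope of -0.015. Length described 12.8% of the variance of the isolation difference across CDS, and 21.3% of that in the 2270 CDS with a mean of at least 50 RPKM, where the slope was 0.1201. A group of 9807 CDS outside every protein class described below had a slope of 0.091. CDS are not independent replicates, so no p is given for these slopes. The medians of the shortest CDS were lower where occupancy was high. At 100 RPKM and over, 72 of 92 CDS under 300 nt were called lower and 1 higher (median -0.31), and 258 of 384 from 300 to under 600 nt were lower and 33 higher (-0.25). Among CDS from 1 to under 10 RPKM the medians of the same bins were -0.13 and -0.055, and fewer of these sparse CDS were called. The added 1 in log2(RPKM + 1) draws differences of such sparse CDS towards 0, so the medians at low and high occupancy are not on an equal footing. For CDS of 2400 to under 4800 nt the medians were +0.14 from 1 to under 10 RPKM, +0.18 from 10 to under 100 and +0.17 at 100 and over.

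**Figure D1:**
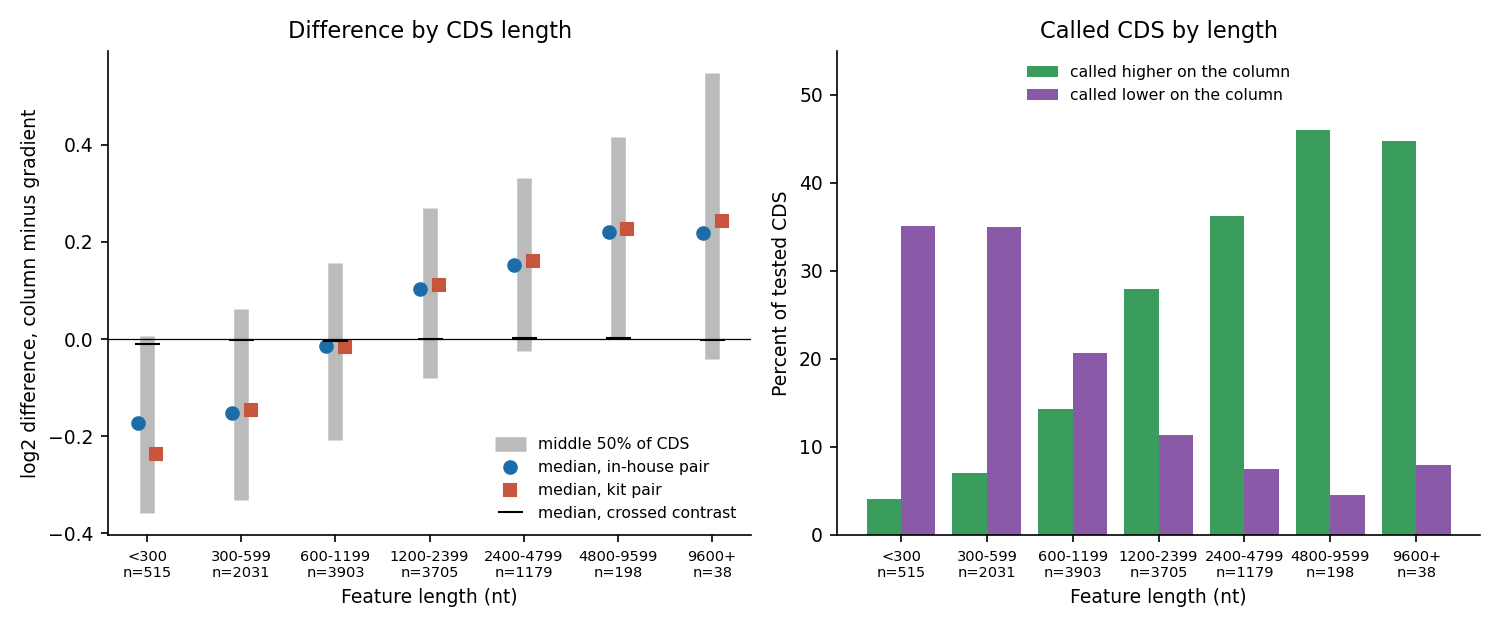
The left panel plots the log2 difference (column minus gradient) by feature length in nt, with grey bars for the middle 50% of CDS, blue circles and red squares for the medians of the in-house and kit pairs, and black dashes for the crossed contrast. The right panel plots the percent of tested CDS called in each direction. Medians go from below 0 under 600 nt to above 0 from 1200 nt with both preparations, while the medians of the crossed contrast lie near 0, the farthest at -0.011.

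The same shift showed in the reads themselves, before any scaling by length. CDS under 300 nt took 2.17% of reads on the gradient and 1.72% on the column in-house, and 2.03% and 1.64% with the kit. Those from 300 to under 600 nt took 18.4% and 15.4% in-house, and 18.1% and 15.3% with the kit. Reads in CDS from 2400 to under 4800 nt went from 9.99% to 11.1% in-house and from 10.4% to 11.6% with the kit. The 95% Wilson intervals of these shares were at most 0.0421 percentage points wide and cover counting error only.

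**Figure D2:**
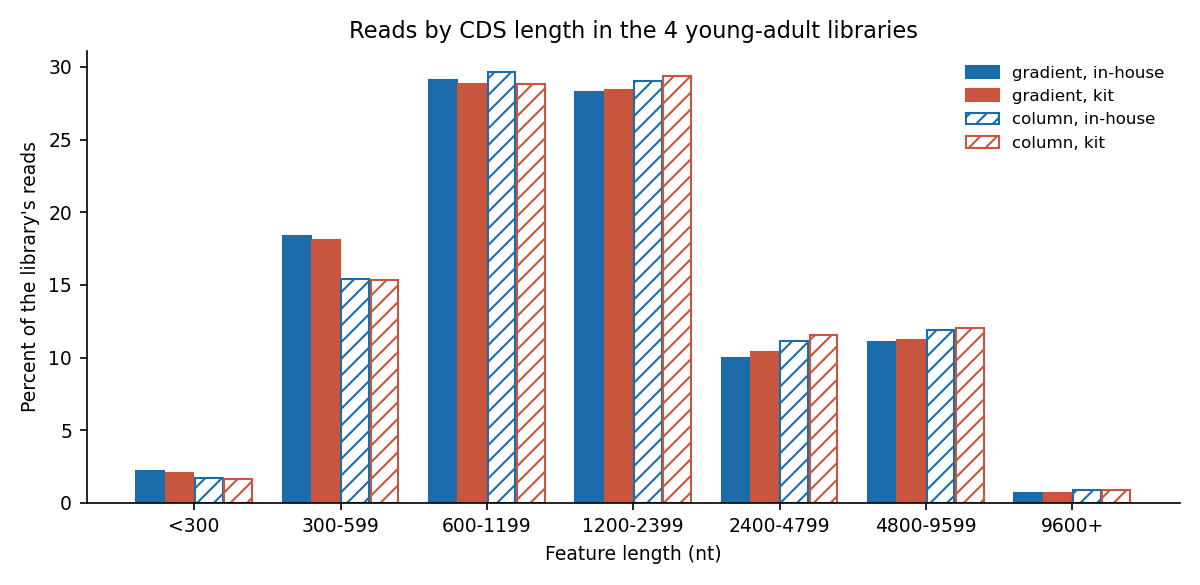
Bars give the percent of each library's reads that fall in CDS of each feature length, for the gradient (filled) and the column (hatched), in-house in blue and kit in red. Both column libraries lie below both gradient libraries under 600 nt and above them from 1200 nt.

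The shortest CDS with a symbol and a mean of at least 20 RPKM include subunits of the ribosome and of mitochondrial complexes. The ribosomal protein gene rpl-39 (184 nt) gave 6169.7 (gradient) and 4270.3 RPKM (column) in-house, and 9019.5 and 6595 RPKM with the kit (log2 difference -0.49, SE 0.03, adjusted p = 0.00355). Each column library lay below its own gradient library, although the kit column value exceeded the in-house gradient value. For nola-3 (167 nt), a small protein of the particle that modifies ribosomal RNA, the values went from 973 to 671 RPKM in-house and from 500.1 to 389 with the kit (log2 difference -0.45, SE 0.05, adjusted p = 0.00391). Both column values were lower than their own gradient values. The genes hpo-18 of the ATP synthase (-0.35) and ucr-11 of complex III (-0.29) and the import gene tomm-7 (-0.18) were called lower as well. So were rps-29 (-0.46), pmpl-1 (-0.22), txt-14 (-0.19) and nspa-8 (-0.56). The exception was the shortest of these, ostf-4 (108 nt), with 117 (gradient) and 115 RPKM (column) in-house, and 121 and 109.97 RPKM with the kit and no call (adjusted p = 0.245). Of these 10 CDS 9 were lower and 0 higher.

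The longest CDS of the same level encode giant proteins of transport, ubiquitin transfer and cell attachment. The dynein heavy chain gene dhc-1 (13735 nt), the motor that moves cargo along microtubules, gave 37.01 (gradient) and 66.5 RPKM (column) in-house, and 36.8 and 65.3 RPKM with the kit (log2 difference +0.82, SE 0.05, adjusted p = 0.00355). Here both column values lay above both gradient values, with gradient libraries within 1 RPKM of each other. The HECT ubiquitin ligase gene eel-1 (12562 nt) went from 53.2 to 74.8 RPKM in-house and from 57.6 to 78.6 with the kit (log2 difference +0.46, SE 0.04, adjusted p = 0.00355). Its relative hecd-1 was at +0.42, the translational regulator gcn-1 at +0.58, the attachment protein let-805 at +0.53 and the laminin alpha chain gene epi-1 at +0.24, all called higher. Not every CDS at this end was higher. The perlecan gene unc-52 (10577 nt), a basement membrane proteoglycan, gave 76.3 (gradient) and 68.5 RPKM (column) in-house, and 70.4 and 62.2 RPKM with the kit (log2 difference -0.16, SE 0.04, adjusted p = 0.0321), and both column values lay below both gradient values. The reticulon gene ret-1 (10213 nt) was not called (+0.015), nor were vps-13A (+0.13) and mask-1 (+0.13). Of the 10 longest CDS 6 were higher, 1 was lower and 3 were not called.

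A total of 1762 tested CDS fell in 47 protein classes defined by gene symbol. For each class the calls are given beside the background of 19.8% higher and 19.2% lower, with the median of its members and the median against like length, for which each member's difference is taken less the median of the 200 CDS nearest in length outside the class. That reference is matched for length only, not for occupancy. Members of a class were called mostly one way in the classes of membrane transporters, lipid enzymes, ribosomal proteins and histones, and both ways in several complexes.

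**Figure D3:**
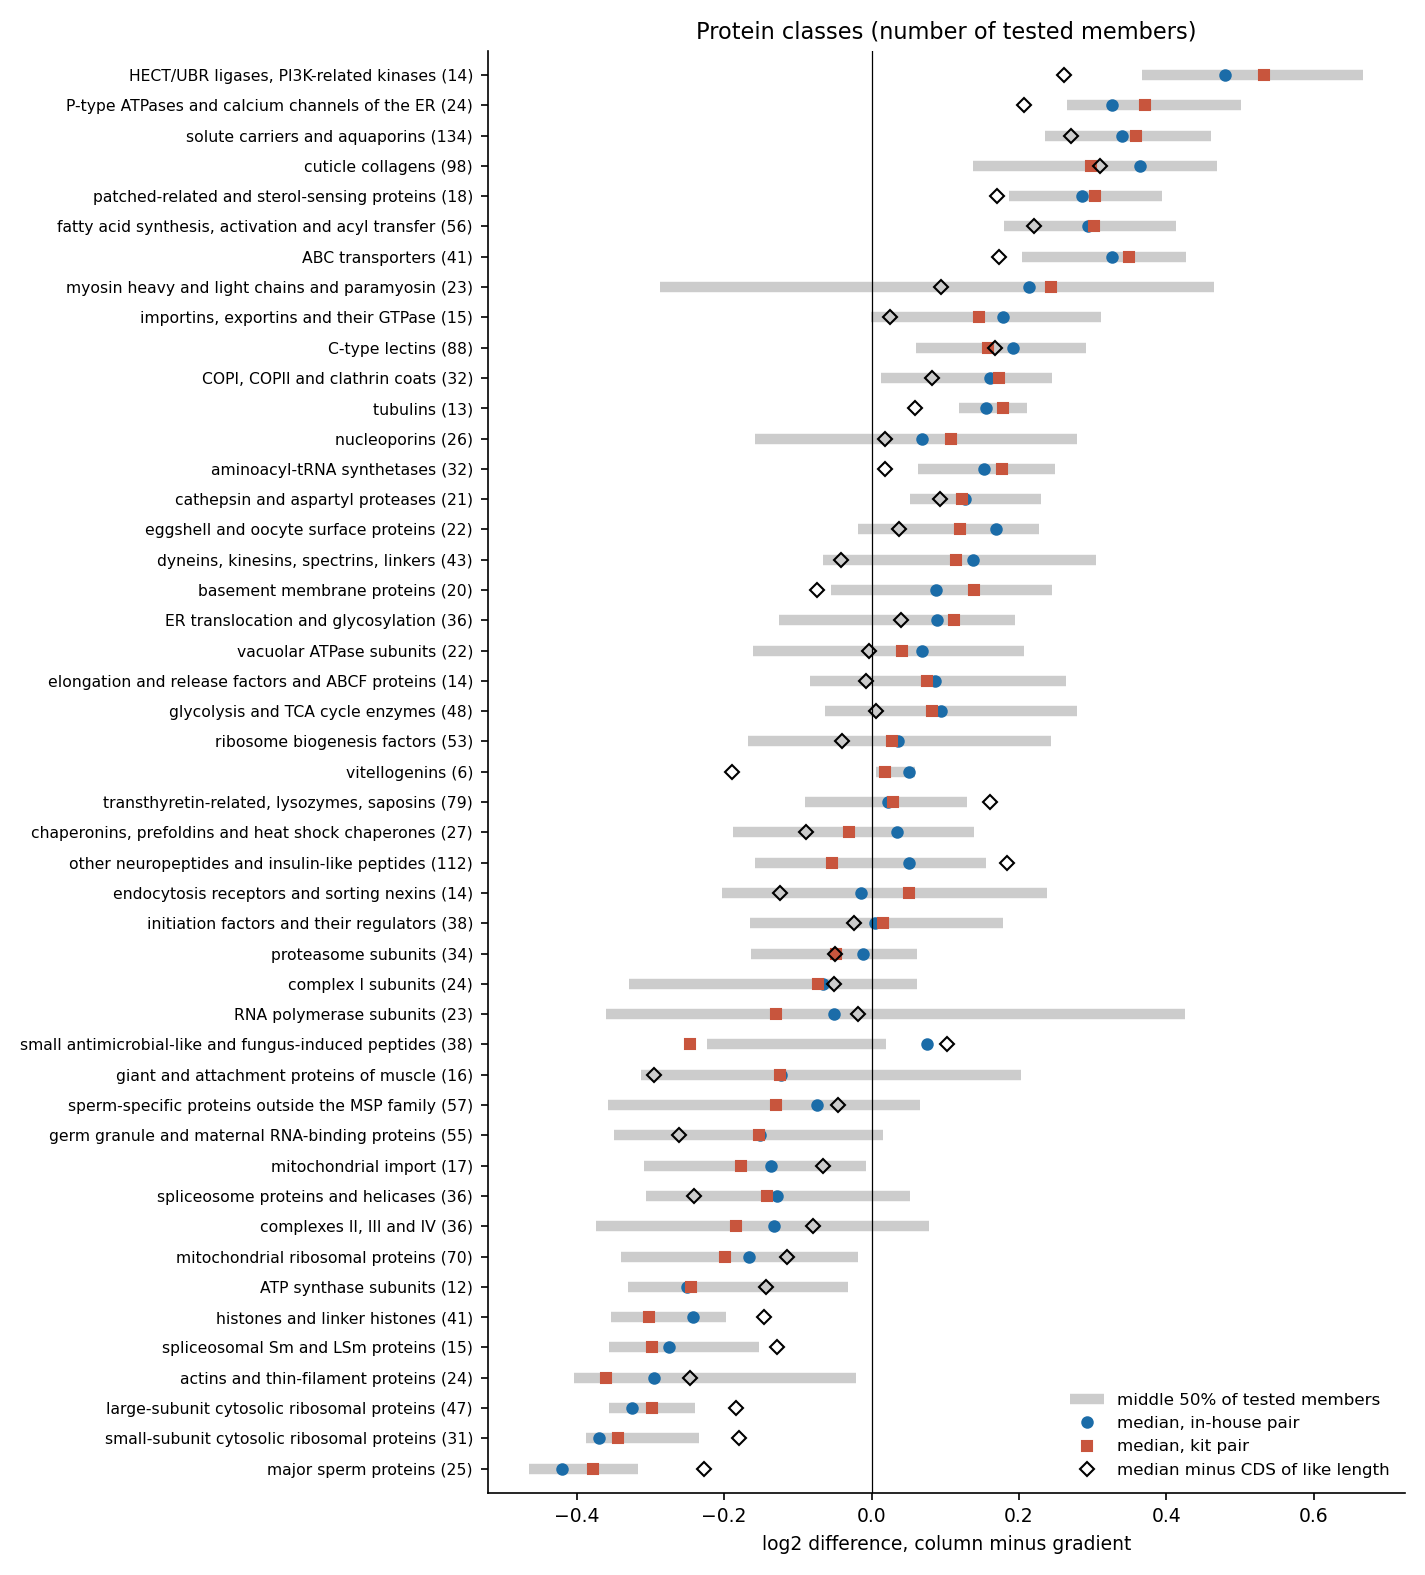
Each row is a protein class with its number of tested members, ordered by its median log2 difference (column minus gradient). Grey bars span the middle 50% of members, blue circles and red squares are the medians of the in-house and kit pairs, and open diamonds are the medians after subtracting CDS of like length. Transporter and collagen classes lie to the right of 0 by every measure, and ribosomal proteins and major sperm proteins to the left.

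In the classes of membrane transporters and lipid enzymes no member was called lower. Of solute carriers and aquaporins, the channels and exchangers for small molecules, 87 of 134 were called higher and 0 lower (median +0.35, +0.27 against like length). The glycerol and water channel gene aqp-7 gave 409.5 (gradient) and 529 RPKM (column) in-house, and 274 and 339.8 RPKM with the kit (log2 difference +0.34, SE 0.04, adjusted p = 0.0037). With each preparation the column value was the higher, and both in-house values exceeded both kit values. The slc-5A12 gene of the sodium-coupled carriers went from 14.4 to 26.8 RPKM in-house and from 13.9 to 27.3 with the kit (log2 difference +0.89, SE 0.06, adjusted p = 0.00355). The zinc carrier gene slc-30A5 went from 14.3 to 27.5 RPKM in-house and from 17.5 to 32.1 with the kit (log2 difference +0.87, SE 0.06, adjusted p = 0.00355). Both were chosen after their values were seen. For each, both column values lay above both gradient values. The adenine nucleotide carrier of the mitochondrial inner membrane, ant-1.1, had the highest RPKM of the class and went from 4946 to 5330.3 RPKM in-house and from 4042 to 4375 with the kit (log2 difference +0.11, SE 0.03, adjusted p = 0.0389). Here too both in-house values exceeded both kit values, so the isolations overlapped.

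Calls among pumps and large transporters were upwards. Of P-type ATPases and calcium channels of the ER, 18 of 24 were called higher and 0 lower (median +0.37, +0.21 against like length), and of ABC transporters 23 of 41 were called higher and 0 lower (median +0.30, +0.17 against like length). The sodium pump has a long alpha subunit with many membrane spans, eat-6 (3019 nt), and short beta subunits with a single span such as nkb-1 (991 nt). Its alpha subunit gave 323 (gradient) and 373 RPKM (column) in-house, and 253 and 317 RPKM with the kit (log2 difference +0.27, SE 0.04, adjusted p = 0.00841). The beta subunit nkb-1 gave 99.96 (gradient) and 167 RPKM (column) in-house, and 125 and 194 RPKM with the kit (log2 difference +0.69, SE 0.04, adjusted p = 0.00355). For nkb-1 both column values lay above both gradient values, while for eat-6 the kit column value lay just under the in-house gradient value. The shorter subunit had the larger difference, and its relative nkb-3 was at +0.50. The calcium pump of the muscle ER, sca-1, was at +0.36. Among ABC transporters mrp-4, an efflux pump of the multidrug resistance type, went from 25.6 to 46.6 RPKM in-house and from 24.7 to 44.7 with the kit (log2 difference +0.84, SE 0.05, adjusted p = 0.00355), and pmp-5 was at +0.36. The shortest member, wht-4, and the longest, abt-2, were not called (-0.033 and +0.072).

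Patched-related and sterol-sensing proteins, receptors and carriers that handle sterols and other lipids, had 9 of 18 called higher and 0 lower (median +0.32, +0.17 against like length). The patched gene ptc-1 was at +0.36 and its relative ptr-2 at +0.63. Among enzymes of fatty acid synthesis, activation and acyl transfer, 35 of 56 were called higher and 0 lower (median +0.31, +0.22 against like length). The elongase gene elo-6 gave 526 (gradient) and 642 RPKM (column) in-house, and 463 and 598.6 RPKM with the kit (log2 difference +0.33, SE 0.04, adjusted p = 0.00402). For elo-6 both column values lay above both gradient values. The desaturase gene fat-2 was at +0.33 and the hydratase gene hpo-8 at +0.37. Elongases and desaturases, which sit in the ER membrane, were called higher for 15 of 16 members with 0 lower (median +0.33). Acyltransferases of the acl family had 10 of 13 higher, with 0 lower and a median of +0.44. The acyl-CoA synthetases had 7 of 20 higher and 0 lower. These 3 sub-groups were drawn after values were seen. The soluble multidomain synthase fasn-1 (7842 nt) was higher as well (+0.39).

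Set beside CDS of the same length bin that are in no listed class, these classes had more calls upwards in each bin given here. From 600 to under 1200 nt 23 of 41 solute carriers were higher and 0 lower (median +0.26), and 17 of 22 lipid enzymes higher and 0 lower (+0.37). The CDS in no class had 12.1% called higher there, 20.2% lower and a median of -0.021. From 1200 to under 2400 nt, where CDS in no class had 26.3% higher, 11.1% lower and a median of +0.10, solute carriers had 59 of 86 higher and 0 lower (+0.40), and ABC transporters 10 of 16 higher and 0 lower (+0.29). Of the pumps from 2400 to under 4800 nt 14 of 19 were higher and 0 lower (+0.36), against 31.3% higher, 7.42% lower and +0.13.

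In the secreted classes the calls were less even. Cuticle collagens, the triple-helix proteins of the exoskeleton, were compared with other CDS of 600 to under 1200 nt, where 96 of the 98 tested collagens lie. There 52 were higher and 2 lower (median +0.33), against 416 of 3430 higher and 693 lower (median -0.021) among CDS in no listed class. Over all 98 the median was +0.32, or +0.31 against like length. Their share of reads went from 4.63% to 6.51% in-house and from 4.19% to 5.61% with the kit. The 2 collagens called lower were col-94 (from 57.7 to 43.95 RPKM in-house and from 30.2 to 26.8 with the kit, -0.28) and col-92 (-0.17). C-type lectins, secreted or membrane proteins with a sugar-binding fold, had 25 of 88 called higher and 2 lower (median +0.18, +0.17 against like length). The lectin gene clec-56 gave 34.4 (gradient) and 46.8 RPKM (column) in-house, and 29.7 and 45.5 RPKM with the kit (log2 difference +0.51, SE 0.06, adjusted p = 0.00412), and both column values lay above both gradient values. Cathepsins and aspartyl proteases, enzymes of the gut and lysosome, had 11 of 21 called higher and 2 lower (median +0.15, +0.093 against like length), with cpl-1 at +0.35 and cpr-9 at -0.14. Eggshell and oocyte surface proteins split. The yolk receptor rme-2 (+0.26) and the egg surface proteins egg-1 (+0.40) and egg-2 (+0.39) were higher. Of the cpg genes, which encode chondroitin proteoglycans of the eggshell, cpg-1 (-0.38), cpg-2 (-0.17), cpg-3 (-0.20) and cpg-9 (-0.17) were lower and cpg-4 (+0.60) was higher. The level of cpg-1 was 1518 (gradient) and 1138 RPKM (column) in-house, and 1578 and 1245 RPKM with the kit, and both column values lay below both gradient values. In all, that class had 8 of 22 called higher and 4 lower (median +0.14, +0.037 against like length).

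Among small secreted proteins few members were called. Transthyretin-related proteins, lysozymes and saposin-like proteins had 7 of 79 called higher and 13 lower (median +0.035, +0.16 against like length) with a median length of 454 nt. For neuropeptides and insulin-like peptides, which are cut from secreted precursors, 10 of 112 were called higher and 9 lower (median +0.0052, +0.18 against like length). Their median was 5.59 RPKM. Of all CDS from 1 to under 10 RPKM, 5.8% were higher and 15.6% lower under 300 nt. From 300 to under 600 nt these shares were 5.9% and 12.1%, so few calls are common among short sparse CDS. The peptide gene nlp-40 gave 249 (gradient) and 297 RPKM (column) in-house, and 301 and 354 RPKM with the kit (log2 difference +0.24, SE 0.03, adjusted p = 0.00622). The peptide gene flp-24 went from 20.7 to 15.3 RPKM in-house and from 28.2 to 21.5 with the kit (log2 difference -0.39, SE 0.06, adjusted p = 0.00609). With each preparation nlp-40 was higher on the column and flp-24 lower. The small antimicrobial-like and fungus-induced peptides of the epidermis, at a median of 11.1 RPKM, had 0 of 38 called higher and 6 lower (median -0.12, +0.10 against like length), with fipr-1 at -0.23. Their in-house median was +0.075 and their kit median -0.25. Against like length these were +0.21 and -0.0067, so the class had no common direction. Vitellogenins, the long secreted yolk proteins, had 1 of 6 called higher and 0 lower (median +0.035, -0.19 against like length), and the call was vit-1 (+0.14). Basement membrane proteins had 6 of 20 called higher and 3 lower (median +0.12, -0.074 against like length). Laminin chains lam-1 (+0.38) and lam-2 (+0.36) and the giant him-4 (+0.87) were higher, and the osteonectin gene ost-1 (-0.19) and mig-6 (-0.16) lower.

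Proteins of the ER that carry out import, glycosylation and folding gave both signs. In that class 15 of 36 were called higher and 10 lower (median +0.090, +0.040 against like length). The catalytic oligosaccharyltransferase subunit stt-3, which crosses the membrane many times and joins glycans to new proteins, gave 73.1 (gradient) and 146 RPKM (column) in-house, and 90.7 and 190.1 RPKM with the kit (log2 difference +1.02, SE 0.04, adjusted p = 0.00355). For this gene both column values lay above both gradient values. The channel-forming translocon subunit sec-61.A gave 933 (gradient) and 1383 RPKM (column) in-house, and 773 and 1119 RPKM with the kit (log2 difference +0.55, SE 0.03, adjusted p = 0.00355), and both column values lay above both gradient values. The small translocon subunits sec-61.B (274 nt, -0.31) and sec-61.G (235 nt, -0.35) had the opposite sign. Further membrane subunits went both ways. Called higher were the signal peptidase subunits spcs-3 (571 nt, +0.39), spcs-2 (+0.19) and sec-11 (+0.29), and tram-1 (+0.39) and emc-1 (+0.54). Called lower were emc-6 (364 nt, -0.28), trap-1 (802 nt, -0.11) and the oligosaccharyltransferase subunit ostb-1 (1366 nt, -0.17). The short subunits dad-1 (-0.077) and spcs-1 (+0.10) were not called. Soluble proteins of the ER lumen went both ways as well. Among the protein disulfide isomerases pdi-2 (1510 nt) gave 818 (gradient) and 651 RPKM (column) in-house, and 736 and 584 RPKM with the kit (log2 difference -0.33, SE 0.03, adjusted p = 0.00355), and both column values lay below both gradient values. The 4 tested genes pdi-1, pdi-2, pdi-3 and pdi-6 were called lower, from -0.34 to -0.16, a sub-group drawn after values were seen. The calcium-binding chaperone crt-1, calreticulin (+0.20, recovered length uncertain), and the folding sensor uggt-1 (4510 nt, +0.19) were called higher. COPI, COPII and clathrin coats, which bud vesicles from these membranes, had 16 of 32 called higher and 3 lower (median +0.17, +0.082 against like length). The clathrin heavy chain chc-1 (5074 nt) was at +0.25, its light chain clic-1 (709 nt) at -0.45, the small GTPase arf-1 at +0.19, and the coat subunits aps-2 at -0.22 and copz-1 at -0.22.

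Most ribosomal proteins of the cytosol fell. Of the large subunit 0 of 47 were called higher and 40 lower (median -0.32, -0.18 against like length), and of the small subunit 1 of 31 were called higher and 28 lower (median -0.36, -0.18 against like length). The exception was rack-1 (1006 nt), a scaffold protein of the small subunit, which gave 3597 (gradient) and 4049 RPKM (column) in-house, and 3019 and 3719.7 RPKM with the kit (log2 difference +0.24, SE 0.04, adjusted p = 0.011). Its column value was the higher with each preparation. The longest member of the large subunit, rpl-3 (1234 nt), was not called (-0.075). From 300 to under 600 nt 26 of 29 large-subunit proteins (median -0.33) and 18 of 18 small-subunit proteins (-0.36) were lower. Of all CDS in that bin at 100 RPKM and over, which include these, 67.2% were lower (median -0.25). The like-length values of ribosomal proteins thus do not separate the class from its high occupancy. Mitochondrial ribosomal proteins had 5 of 70 called higher and 37 lower (median -0.19, -0.11 against like length), with mrpl-36 (262 nt) at -0.36 and mrps-27 (1303 nt) at +0.25. The shorter members of this class had a median of -0.28 and the longer ones -0.044.

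In several further classes most calls were downwards. Of histones 0 of 41 were called higher and 27 lower (median -0.28, -0.15 against like length), and of Sm and LSm proteins, the rings of the splicing particles, 0 of 15 were called higher and 11 lower (median -0.30, -0.13 against like length). From 300 to under 600 nt 8 of 12 Sm and LSm proteins were lower (median -0.26). Of all CDS in that bin at 100 RPKM and over, 67.2% were lower (median -0.25). Sm and LSm proteins had a median of 215 RPKM, so their calls are near the share of CDS of like length and level. Histone copies are near-identical, so their single values are uncertain. The Sm protein gene snr-7 gave 867 (gradient) and 661 RPKM (column) in-house, and 719 and 568 RPKM with the kit (log2 difference -0.37, SE 0.03, adjusted p = 0.00355), and both column libraries lay below both gradient libraries. Major sperm proteins, the cytoskeleton of nematode sperm, had 1 of 25 called higher and 21 lower (median -0.40, -0.23 against like length), but these copies are near-identical and the single call upwards, msp-10 (+1.503), is as uncertain as the rest. Sperm proteins outside that family had 3 of 57 called higher and 21 lower (median -0.13, -0.045 against like length), with ssq-1 at -0.45 and, against the rest, cylc-2 at +0.63. Among ATP synthase subunits 0 of 12 were called higher and 8 lower (median -0.25, -0.14 against like length), and among mitochondrial import proteins 2 of 17 were called higher and 9 lower (median -0.14, -0.066 against like length). The calls upwards of the latter were the import receptor tomm-70 (1693 nt, +0.16) and tim-1 (4090 nt, +0.46), which the symbol rule put in the list although it encodes a Timeless-related nuclear protein. Thin-filament proteins of muscle had 2 of 24 called higher and 16 lower (median -0.32, -0.25 against like length). The troponin I gene unc-27 gave 762 (gradient) and 596 RPKM (column) in-house, and 968 and 747 RPKM with the kit (log2 difference -0.36, SE 0.03, adjusted p = 0.00355), and both column values lay below both gradient values. The muscle calponin-related gene unc-87 (-0.43) and the tropomyosin gene lev-11 (-0.24) were lower too. Calls upwards were the near-identical actins act-1 (+0.31) and act-4 (+0.17).

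Germ granule and maternal RNA-binding proteins had 10 of 55 called higher and 26 lower (median -0.13, -0.26 against like length) at a median length of 1741 nt. The Y-box gene cey-2, which packs maternal mRNA, gave 2348 (gradient) and 1762 RPKM (column) in-house, and 2334 and 1756 RPKM with the kit (log2 difference -0.41, SE 0.03, adjusted p = 0.00355). For it both column values lay below both gradient values. The decapping-related gene car-1 went from 1959 to 1508 RPKM in-house and from 2077 to 1631 with the kit (log2 difference -0.36, SE 0.03, adjusted p = 0.00355). Members of the same class that were higher included the P granule scaffold genes pgl-1 (+0.32) and pgl-3 (+0.44) and the repressor puf-5 (+0.24). Spliceosome proteins and helicases had 8 of 36 called higher and 17 lower (median -0.16, -0.24 against like length). There uaf-1, which binds the end of introns, gave 145 (gradient) and 109.6 RPKM (column) in-house, and 124 and 86.9 RPKM with the kit (log2 difference -0.45, SE 0.05, adjusted p = 0.00355). The core protein prp-8 (6990 nt) gave 53.1 (gradient) and 83.4 RPKM (column) in-house, and 58.4 and 94.3 RPKM with the kit (log2 difference +0.66, SE 0.04, adjusted p = 0.00355). For uaf-1 both column values lay below both gradient values, and for prp-8 both column values lay above both gradient values. Among the giant and attachment proteins of muscle 4 of 16 were called higher and 7 lower (median -0.12, -0.29 against like length). The LIM and immunoglobulin-domain proteins zyx-1 (-0.42) and dim-1 (-0.46) were lower, while the titin-like unc-89 (+0.56) was higher. The longest CDS of all, ttn-1 (56003 nt, +0.45), was called higher too. It gave 0.93 (gradient) and 1.63 RPKM (column) in-house, and 0.87 and 1.54 RPKM with the kit. It thus passed the filter of 1 RPKM only through the column libraries, so its call is no evidence of a rise. The kettin gene ketn-1 (13625 nt), at 17.27 (gradient) and 16.85 RPKM (column) in-house and 16.999 and 16.74 RPKM with the kit, was not called (adjusted p = 0.74).

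In RNA polymerase, myosin and complex I most calls among long subunits were upwards and most among short subunits downwards. RNA polymerases are built of long catalytic subunits and short accessory ones. All 7 subunits of 2400 nt and over were called higher. Of the 16 shorter ones 1 was higher and 10 were lower. For the whole class 8 of 23 were called higher and 10 lower (median -0.090, -0.018 against like length). The largest subunit of polymerase II, ama-1 (5599 nt), gave 34.4 (gradient) and 47.2 RPKM (column) in-house, and 35.3 and 50.2 RPKM with the kit (log2 difference +0.47, SE 0.05, adjusted p = 0.00362). Its partner rpb-2 (3610 nt) was at +0.55, and the largest subunits of polymerases I and III, rpoa-1 and rpc-1, were at +0.69 and +0.38. The mitochondrial polymerase rpom-1 was at +0.57. Among the short subunits rpb-6 (442 nt) gave 226 (gradient) and 161 RPKM (column) in-house, and 256 and 194 RPKM with the kit (log2 difference -0.44, SE 0.04, adjusted p = 0.00355). For ama-1 both column values lay above both gradient values, and for rpb-6 both column values lay below both gradient values. Further short subunits called lower were rpac-19 (-0.50), rpb-9 (-0.42), rpb-11 (-0.40) and rpb-5 (-0.33). The exceptions by length were rpb-3 (849 nt, +0.37), called higher, and rpoa-49 (1327 nt, -0.22), called lower.

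Myosin holds long heavy chains, which form the motor and the rod, and short light chains that bind its neck. In this class 11 of 23 were called higher and 7 lower (median +0.26, +0.094 against like length). All 7 light chains had negative differences and 6 were called lower, median -0.32, while 11 of 14 heavy chains and paramyosin were called higher and 0 lower, median +0.45, a split made after values were seen. The symbol rule also put unc-96 (1285 nt, -0.45, called lower) and mlck-1 (3636 nt, not called) in the class, which are in neither group. The body wall heavy chain unc-54 gave 432 (gradient) and 538 RPKM (column) in-house, and 412 and 511 RPKM with the kit (log2 difference +0.31, SE 0.03, adjusted p = 0.00365). Its light chain mlc-3 gave 1111 (gradient) and 851 RPKM (column) in-house, and 1257 and 939 RPKM with the kit (log2 difference -0.40, SE 0.03, adjusted p = 0.00355). The column lay above the gradient in both libraries for the heavy chain and below it for the light chain. Paramyosin, unc-15, the core of the thick filament, gave 254 (gradient) and 453 RPKM (column) in-house, and 241 and 422 RPKM with the kit (log2 difference +0.82, SE 0.03, adjusted p = 0.00355). The non-muscle chain nmy-2 was at +0.44, and the longest unconventional myosin, hum-4 (7746 nt), was not called (-0.063). Complex I of the respiratory chain had 4 of 24 called higher and 10 lower (median -0.046, -0.051 against like length). All 4 calls upwards were among its 7 subunits of 1324 nt and over, such as nuo-4 (1339 nt, +0.27) and nuo-5 (2513 nt, +0.17), and all 10 calls downwards were at 707 nt or under, such as ndub-3 (340 nt, -0.51) and lpd-5 (-0.45). Complexes II, III and IV with their cytochromes had 8 of 36 called higher and 17 lower (median -0.18, -0.079 against like length), with the cytochrome c gene cyc-2.1 at -0.39 and the succinate dehydrogenase gene sdha-2 (1951 nt) at +0.40.

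The vacuolar ATPase, the proton pump of acidic organelles, had calls both ways at like lengths. Of its subunits 7 of 22 were called higher and 7 lower (median +0.076, -0.0035 against like length). It has a membrane sector, V0, and a soluble sector, V1. Of the 12 membrane and accessory subunits 6 were higher and 2 lower (median +0.17), and of the 10 soluble subunits 1 was higher and 5 lower (median -0.085), again a split made after values were seen. The proteolipid vha-2 and the related vha-4 are membrane subunits of short length (514 and 673 nt). The gene vha-4 gave 319 (gradient) and 388 RPKM (column) in-house, and 274 and 332 RPKM with the kit (log2 difference +0.28, SE 0.03, adjusted p = 0.00446). The soluble subunit vha-8, of like length (709 nt), gave 731 (gradient) and 659.97 RPKM (column) in-house, and 788 and 669 RPKM with the kit (log2 difference -0.19, SE 0.04, adjusted p = 0.0147). In each preparation the first was higher on the column and the second lower. The long a subunits vha-5, vha-6, vha-7 and unc-32 were called higher, from +0.22 to +0.50. Of the soluble ones vha-10 (-0.39), vha-9 (-0.37) and the B subunit vha-12 (1504 nt, -0.22) were lower, while vha-18 (+0.45) was the only one called higher. Among the membrane and accessory subunits vha-17 (-0.29) and vha-19 (-0.13) were called lower.

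**Figure D4:**
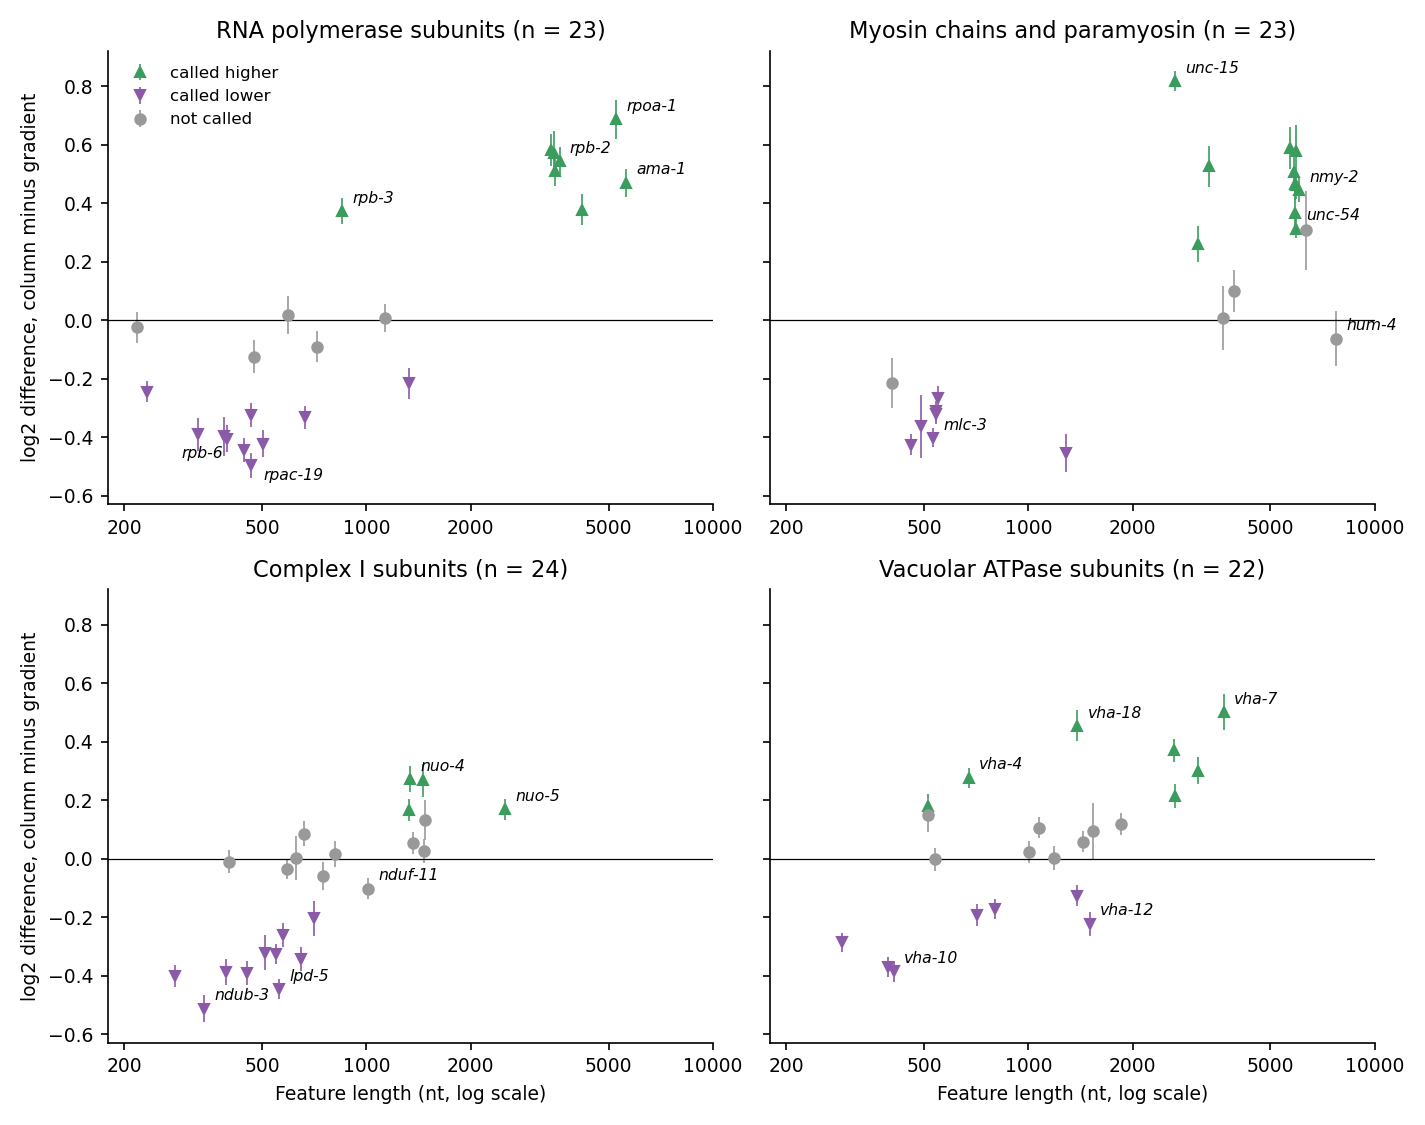
The log2 difference (column minus gradient, with the standard error of the fit) is plotted against feature length in nt on a log axis for the subunits of 4 assemblies. Green triangles are called higher, purple triangles called lower and grey circles not called. Called subunits lie mostly below 0 where short and above it where long in RNA polymerase, myosin and complex I, while vacuolar ATPase subunits of like length lie on both sides.

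Other classes of long proteins had more calls upwards than downwards. The HECT and UBR ubiquitin ligases and PI3-kinase-related kinases had 12 of 14 called higher and 0 lower (median +0.47, +0.26 against like length). The ligase gene ubr-1 gave 23.01 (gradient) and 32.4 RPKM (column) in-house, and 24.8 and 34.7 RPKM with the kit (log2 difference +0.47, SE 0.05, adjusted p = 0.00378), and both column values lay above both gradient values. The kinase smg-1 of mRNA surveillance was at +0.68 and the growth kinase let-363, the worm's TOR, at +0.57. Dyneins, kinesins, spectrins, intermediate filaments and linker proteins had 14 of 43 called higher and 5 lower (median +0.13, -0.041 against like length), with the kinesin unc-116 at +0.40 and the intermediate filament gene ifb-1 at -0.39. Aminoacyl-tRNA synthetases, which charge tRNAs, had 16 of 32 called higher and 0 lower (median +0.15, +0.018 against like length). The longest of them, lars-1, was at +0.44. Importins, exportins and their GTPase had 7 of 15 called higher and 3 lower (median +0.19, +0.025 against like length), with the export receptor xpo-1 at +0.43 and the Ran-related genes ran-4 at -0.33 and ran-5 at -0.45. Nucleoporins had 10 of 26 called higher and 7 lower (median +0.16, +0.019 against like length). At the nuclear pore npp-3 was at +0.70 and npp-7 at -0.39. Tubulins, which are shorter, had 4 of 13 called higher and 0 lower (median +0.16, +0.058 against like length), with tba-1 at +0.25.

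In the remaining classes calls went both ways. Initiation factors and their regulators had 10 of 38 called higher and 10 lower (median -0.0086, -0.024 against like length), where iff-1 (616 nt) was at -0.39, inf-1 at -0.19 and eif-3.I at +0.27. Elongation and release factors had 7 of 14 called higher and 2 lower (median +0.076, -0.0079 against like length), with eef-2 at +0.20. Chaperonins, prefoldins and heat shock chaperones had 9 of 27 called higher and 9 lower (median +0.028, -0.088 against like length). There hsp-90 gave 1739 (gradient) and 2178 RPKM (column) in-house, and 1959 and 2339.5 RPKM with the kit (log2 difference +0.29, SE 0.03, adjusted p = 0.00421). Its co-chaperone sti-1 gave 385 (gradient) and 279.9 RPKM (column) in-house, and 491 and 341 RPKM with the kit (log2 difference -0.49, SE 0.04, adjusted p = 0.00355). The chaperone was higher and the co-chaperone lower on the column in both preparations. Proteasome subunits had 2 of 34 called higher and 10 lower (median -0.029, -0.050 against like length). Their shorter members had a median of +0.019 and their longer ones -0.092, with rpn-2 (2930 nt) at +0.46 and rpn-9 (1192 nt) at -0.25. Ribosome biogenesis factors had 16 of 53 called higher and 14 lower (median +0.041, -0.040 against like length), with the longer members at a median of +0.24 and the shorter at -0.072. Glycolysis and TCA cycle enzymes had 19 of 48 called higher and 5 lower (median +0.072, +0.0062 against like length), with aco-2 at +0.40 and mdh-2 at -0.36. Endocytosis receptors and sorting nexins had 4 of 14 called higher and 4 lower (median +0.0017, -0.12 against like length), with rme-8 at +0.73 and snx-3 at -0.38.

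Gene families were also grouped by symbol prefix, after values were seen. Of 109 prefixes with at least 10 tested members, 70 had a median above 0 and 39 below it. Innexins, the proteins of gap junctions, had the highest median, with 14 of 18 higher and 0 lower, median +0.48. The gonadal innexin inx-8 gave 50.1 (gradient) and 84.8 RPKM (column) in-house, and 60.9 and 98.4 RPKM with the kit (log2 difference +0.71, SE 0.04, adjusted p = 0.00355), and both column values lay above both gradient values. Further families at the top are mostly membrane proteins or enzymes of the ER: bestrophin chloride channels (9 of 14 higher and 0 lower, median +0.44), algn genes of N-glycan assembly (11 of 13 higher and 0 lower, median +0.43), zipt zinc carriers (10 of 14 higher and 0 lower, median +0.39), cytochrome P450s (23 of 33 higher and 0 lower, median +0.38), dhhc palmitoyltransferases (7 of 11 higher and 0 lower, median +0.37) and twk potassium channels (5 of 15 higher and 0 lower, median +0.36). The P450 gene cyp-35A2 gave 37.6 (gradient) and 49.5 RPKM (column) in-house, and 53.8 and 72.2 RPKM with the kit (log2 difference +0.40, SE 0.04, adjusted p = 0.00391). A nuclear family among them was ints, the Integrator complex of small nuclear RNA processing (10 of 11 higher and 0 lower, median +0.38), whose members are long, at a median of 2761 nt. Against CDS of like length the ints median was +0.22, beside +0.42 for innexins, +0.25 for cytochrome P450s and +0.22 for twk channels. The short nspc genes (median length 334 nt, 9 of 16 higher and 0 lower, median +0.35) are near-identical copies and uncertain.

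At the other end were ribosomal, histone and sperm families and, among others, several families of soluble nuclear or cytosolic proteins. The cox genes, subunits of cytochrome c oxidase in the mitochondrial inner membrane and proteins of its assembly, had 4 of 14 higher and 10 lower, median -0.33. The rbm genes of RNA-binding motif proteins had 0 of 13 higher and 12 lower, median -0.36, or -0.42 against CDS of like length. Of these rbm-3.2 (286 nt) gave 5769 (gradient) and 4325 RPKM (column) in-house, and 3958 and 3042 RPKM with the kit (log2 difference -0.40, SE 0.03, adjusted p = 0.00355). The column value was lower in each preparation, and the kit gradient value lay below the in-house column value. The bZIP transcription factors had 0 of 11 higher and 5 lower, median -0.31, the Skp1-related skr genes of ubiquitin ligases 0 of 18 higher and 13 lower, median -0.30, and the lec galectins 0 of 12 higher and 7 lower, median -0.26. The zip-2 gene gave 55.8 (gradient) and 39.1 RPKM (column) in-house, and 52.7 and 41.3 RPKM with the kit (log2 difference -0.42, SE 0.06, adjusted p = 0.00547), and both column values lay below both gradient values. Outside the 10 lowest, homeobox genes of the ceh prefix (0 of 33 higher and 9 lower, median -0.23), zinc-finger genes of the ztf prefix (0 of 20 higher and 7 lower, median -0.20) and nuclear hormone receptors (0 of 119 higher and 10 lower, median -0.067) had no call upwards. Over all CDS 19.8% were higher and 19.2% lower. The receptors had a median of 2.39 RPKM and ceh genes 2.69. Of CDS from 1 to under 10 RPKM, 7.8% were higher and 8.8% lower from 600 to under 1200 nt. From 1200 to under 2400 nt these shares were 16.4% and 5.0%, so a small number of calls is common at this level. Against CDS of like length, not matched for occupancy, the medians were -0.15 for the receptors, -0.18 for ceh and -0.24 for ztf genes.

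**Figure D5:**
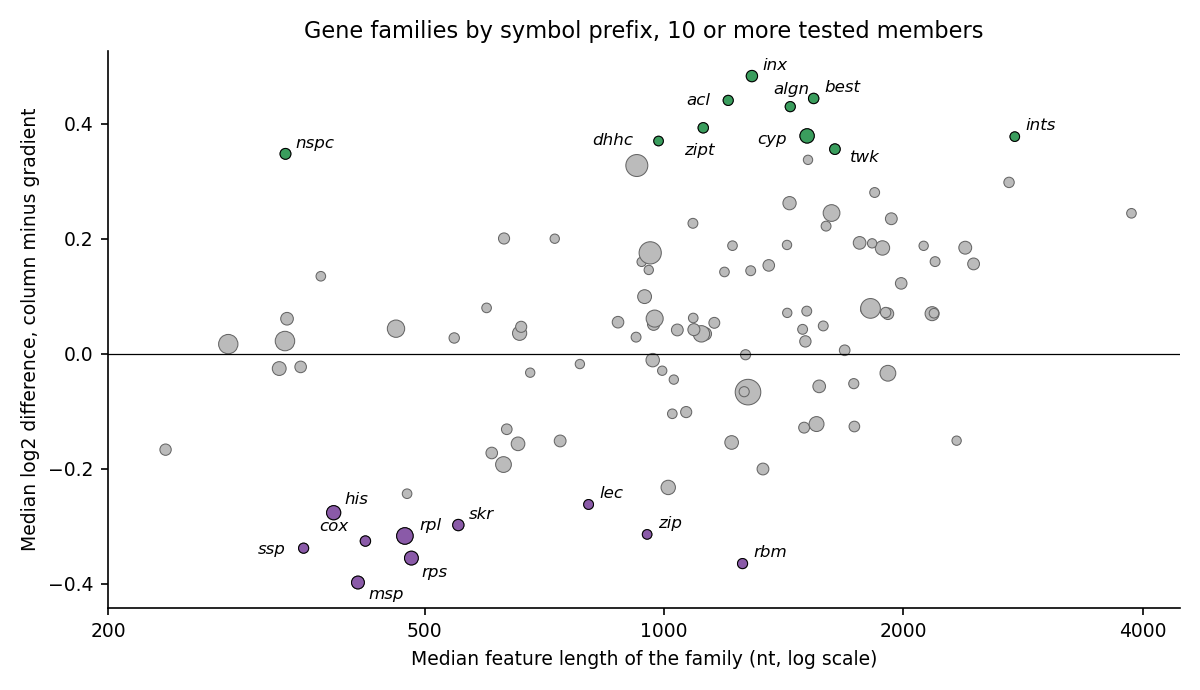
Each circle is a gene family by symbol prefix with at least 10 tested members, sized by its number of members. The x axis is the median feature length in nt on a log scale and the y axis the median log2 difference (column minus gradient). The 10 highest (green) and 10 lowest (purple) families are labelled. Membrane and ER families such as inx, zipt and dhhc lie above families of like length such as rbm and zip.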

How the data were processed

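The deposited table held RPKM per CDS, made by the authors from ribosome-protected reads. Per the submitters' processing notes the tools were STAR 2.4, Bowtie2 2.2.4 and bcl2fastq 1.8.4, whose roles, like the treatment of reads with several matches, are not stated there. The steps between RPKM values gave back reads per CDS, lengths and totals (Python 3.11.15, numpy 2.4.6, pandas 2.3.3), and reads came out whole within 0.0001 for all 19649 CDS with a value. Lengths ran 28 nt over the gene span in 144 of 184 CDS longer than it, so they are called feature lengths. Each is the smallest length that makes the reads of a CDS whole. For some CDS it can therefore be a whole fraction of the true length, with too few reads to match, while RPKM is unaffected. Of all CDS, 20051 matched a RefSeq locus tag and 454 did not.

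Isolation and preparation were fitted together to log2(RPKM + 1) of the 4 young-adult libraries with limma 3.58.1 in R 4.3.3 (lmFit, then eBayes with an abundance trend, two-sided, Benjamini-Hochberg threshold 0.05), which leaves 1 residual degree of freedom. A fold change on this scale understates that of CDS of low RPKM. Preparation pairs the libraries by label, gradient and column of each preparation. The like-length value of a CDS is its difference less the median of the 200 CDS nearest in length, for classes those outside the class.

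Members, the 47 classes and other lists were chosen with earlier results of these data known. Named CDS were the 10 shortest and 10 longest with a mean of at least 20 RPKM and, per class, up to 3 called members each way with the highest mean and the shortest and longest member. This rule gave 300 CDS, of which 148 are named. Other named CDS, mostly subunits of complexes and members of families, were chosen after their values were seen. Alternatives were pseudocounts of 0.1 and 5, no filter, a filter at 10 RPKM, quantile normalization, median centring, no abundance trend, no preparation term, all 8 libraries, voom on recovered reads, CDS of at least 50 RPKM, each preparation alone and, added after seeing the data, CDS outside every class.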

Additional observations from a re-analysis of the deposited data

Results flagged for a closer look

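In 4 classes and in 14 of the CDS named in the text or chosen by the naming rule, the difference between column and gradient had one sign in-house and the other with the kit. Whether the preparations differ was not tested, since each holds 1 library per isolation. The median of chaperonins, prefoldins and heat shock chaperones was +0.034 in-house and -0.030 with the kit. For small antimicrobial-like and fungus-induced peptides it was +0.075 and -0.25, the widest gap of the 4. Neuropeptides and insulin-like peptides had +0.051 and -0.054, and endocytosis receptors and sorting nexins -0.015 and +0.051. Of the CDS, the kinase gene atm-1 was at -0.50 in-house and +0.93 with the kit, and the fungus-induced peptide gene fipr-16 at +0.36 and -0.32. In the same order nlp-61 had +0.15 and -0.30, spp-31 +0.14 and -0.29, nspd-2 +0.055 and -0.28, and the ABC transporter gene wht-4 -0.16 and +0.093. Smaller gaps were those of msp-152 (-0.12 and +0.084), rpb-12 (+0.057 and -0.11), his-56 (+0.062 and -0.090), lrp-2 (-0.11 and +0.021) and the myosin chaperone gene unc-45 (+0.086 and -0.030). The smallest were those of dli-1 (+0.050 and -0.012), the reticulon gene ret-1 (+0.044 and -0.014) and mrpl-44 (-0.0046 and +0.0021). Of these 14 CDS 0 were called, and opposite signs in themselves raise the residual of the fit.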

How the results depend on the processing

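The 4511 calls ranged from 3039 without an abundance trend, where the lower calls numbered 1430, to 5431 with voom. Without the preparation block 0 CDS were called (0 higher, 0 lower), where 1651 had an unadjusted p under 0.05 (limma). With all 8 libraries and terms for stage and preparation 0 were called as well, where 232 had. Every call thus rests on pairing within preparations and on a fit without the L4 libraries. The length slope was 0.111 with a pseudocount of 0.1, 0.0734 with 5, 0.0678 with no filter, 0.123 at 10 RPKM and over, 0.108 with voom and 0.1201 at a mean of 50 RPKM and over. Within single preparations, which leaves out 1 gradient and 1 column library, it ranged from 0.0907 to 0.102. Subtracting CDS of like length turned the medians of basement membrane proteins to -0.074, of small antimicrobial-like peptides to +0.10 and of dyneins, kinesins and linker proteins to -0.041. It also turned smaller positive medians negative: ribosome biogenesis factors (-0.040), chaperones (-0.088), elongation factors (-0.0079), the vacuolar ATPase (-0.0035), endocytosis receptors (-0.12) and vitellogenins (-0.19). Small antimicrobial-like peptides ranged from -0.25 to +0.075 when 1 library was left out, which leaves the other preparation's pair. None of the 165 named CDS with a call changed sign in these fits, while 8 of the 26 without a call did. Of the 165, 51 lost the call without an abundance trend, 17 with quantile normalization (such as unc-52, mig-6, pdi-6, vha-8, vha-12 and vha-19), 8 with median centring, 5 with no filter (ant-1.1, trap-1, ttn-1, vha-19 and vit-1) and 1, fipr-1, with voom. Centring moved the median of all CDS by -0.056, which turned the small positive medians of ribosome biogenesis factors, chaperones, vitellogenins, transthyretin-related proteins, neuropeptides and endocytosis receptors negative. Quantile normalization turned the small negative medians of initiation factors and proteasome subunits positive. The planned counts of hydrophobic segments and comparison with protein length were not run, since no protein sequence was used here. The causes of these changes were not tested. Depth limits sparse CDS: the fewest reads of a tested CDS over the 4 libraries was 14.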
